A study of Mus musculus with 48 samples.

Results

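The fatty acid desaturases and elongases described here are 10 mouse genes, the stearoyl-CoA desaturases Scd1 and Scd2, the front-end desaturases Fads1 and Fads2 with their relative Fads3, and the elongases Elovl1, Elovl2, Elovl3, Elovl5 and Elovl6. They were taken by gene name from 29221 genes counted in 48 liver RNA-seq libraries, 1 library per mouse. All mice carried floxed Pparg alleles. Controls received AAV8-TBG-null and mice labelled as knockouts received AAV8-TBG-Cre after 16 weeks of diet, with the Cre driven by the TBG promoter, which is active in hepatocytes. The low-fat (LF) and high-fat (HF) groups ate 1 diet for 34 weeks, and the HFCF groups ate the HF diet for 18 weeks and then a diet rich in fat, cholesterol and fructose for 16 weeks. The labels call the LF livers healthy, the HF livers steatotic and the HFCF livers steatohepatitic. Each of the 6 female groups (LF, HF and HFCF, control and labelled knockout) held 4 mice, and each of the 4 male groups (HF and HFCF, control and labelled knockout) held 6 mice. LF males are not analysed here.

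Stearoyl-CoA desaturases place the first double bond in saturated fatty acyl-CoAs, and their product oleate is a major component of liver triglyceride. The front-end desaturases and the elongases of the Elovl family add double bonds and carbons in turn, which builds arachidonate and docosahexaenoate from the essential fatty acids, while other elongases lengthen saturated and monounsaturated chains. In liver much of this set is under the transcription factors SREBP-1c, LXR and PPARα.

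Scd1 and Scd2 lie close together on chromosome 19 and are close copies, so the first sequences below show where reads from them look alike and where they can be told apart. The coding sequences (GENCODE, GRCm38) were identical at 962 of 1065 aligned bases (90.33%). A stretch of 75 bases that is identical in both genes runs from coding base 442 to 516 of Scd1 and from 451 to 525 of Scd2, and its capitals mark the codons of a histidine box, the cluster of histidines that holds iron in these enzymes.
Scd1 shared run: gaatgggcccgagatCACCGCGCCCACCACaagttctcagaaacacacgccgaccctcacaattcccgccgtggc
Scd2 shared run: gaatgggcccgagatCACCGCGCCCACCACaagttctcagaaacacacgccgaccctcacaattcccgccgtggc
A window nearer the start of the coding sequence, bases 79 to 153 of Scd1 and 88 to 162 of Scd2, differs at 29 bases, which are in capitals.
Scd1 divergent window: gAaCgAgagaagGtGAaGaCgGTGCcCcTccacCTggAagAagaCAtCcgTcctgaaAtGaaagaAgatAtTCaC
Scd2 divergent window: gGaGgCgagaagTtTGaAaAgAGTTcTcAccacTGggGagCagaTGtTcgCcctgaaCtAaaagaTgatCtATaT
Over the whole transcripts, 145 stretches of 50 bases were shared, 3.03% of those of Scd1 and 2.68% of those of Scd2. The longest identical run in the aligned coding sequences was 147 bases. Because Scd1 had 54.3 to 1980 times the CPM (the read count scaled by the library's total of reads on genes and its trimmed-mean (TMM) factor) of Scd2, depending on the library, with a median of 609.6, even a small share of Scd1 reads counted on Scd2 would bear on the Scd2 values, and how reads that fit both genes were treated is not given in the sources used here.

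The elongases are shown next, around the histidine box that they share, because 5 members of 1 family are compared below. The capitals mark the box, with 15 coding bases on either side.
Elovl1 histidine box: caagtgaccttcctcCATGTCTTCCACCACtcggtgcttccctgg
Elovl2 histidine box: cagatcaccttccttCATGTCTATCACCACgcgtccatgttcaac
Elovl3 histidine box: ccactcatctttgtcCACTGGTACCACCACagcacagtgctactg
Elovl5 histidine box: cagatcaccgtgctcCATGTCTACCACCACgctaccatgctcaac
Elovl6 histidine box: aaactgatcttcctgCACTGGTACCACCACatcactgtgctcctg
Over the 10 pairs of these elongases the coding identity ran from 56.78% to 66.16%, with Elovl2 and Elovl5, the elongases of polyunsaturated chains, the most alike. No pair shared a stretch of 50 bases. Among the 3 Fads genes the identity ran from 65.09% to 71.06%, and Fads2 and Fads3, the most alike, shared 5 such stretches.

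In GRCm38, 6 of the 10 genes lie on chromosome 19. Fads3 (ENSMUSG00000024664, chr19:10041548-10059671, plus strand), Fads2 (ENSMUSG00000024665, chr19:10064164-10101503, minus strand) and Fads1 (ENSMUSG00000010663, chr19:10182888-10196870, plus strand) form a cluster. Scd2 (ENSMUSG00000025203, chr19:44293676-44306864, plus strand) and Scd1 (ENSMUSG00000037071, chr19:44394451-44407709, minus strand) lie close together, and Elovl3 (ENSMUSG00000038754, chr19:46131897-46135307, plus strand) lies on the same chromosome. Elovl1 (ENSMUSG00000006390) is at chr4:118428093-118432953, plus strand, Elovl2 (ENSMUSG00000021364) at chr13:41182381-41220405, minus strand, Elovl5 (ENSMUSG00000032349) at chr9:77917364-77984519, plus strand, and Elovl6 (ENSMUSG00000041220) at chr3:129532355-129638495, plus strand. The libraries were not strand specific, so reads in exons shared with a gene on the other strand cannot be assigned. Such overlap covered 1.94% of the exon bases of Elovl1 (with Cdc20), 0.53% of Elovl6 (with Gm35986) and 0.51% of Elovl3 (with Pitx3).

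The libraries held 15338239 to 22072884 reads on genes. Pparg, the targeted gene, was not lower in any labelled knockout group. Its mean was 10.4 ± 3.31 CPM in LF female controls and 15.4 ± 5.40 in the labelled knockouts, and the corresponding pairs were 18.7 ± 4.14 and 28.6 ± 7.85 in HF females, 23.7 ± 1.46 and 45.8 ± 9.37 in HFCF females, 34.2 ± 3.94 and 41.1 ± 14.05 in HF males and 32.3 ± 5.47 and 56.3 ± 6.18 in HFCF males (SD, n = 4 in females and 6 in males). The gene-level counts do not separate deleted from kept exons, so they do not check the genotype, and the groups are called labelled knockouts for this reason. Hepatocyte markers (Alb and 4 others) were abundant in every library, with a summed level of 36909 CPM or more. Adipocyte markers summed to at most 0.223 CPM and sebocyte or skin markers to at most 0.298 CPM in any library. HF female control replicate 1, HFCF male control replicate 1 and HFCF female labelled-knockout replicate 1 stood apart from their groups in marker levels, and results that turn on them are given with and without them. The last of these had a summed hepatocyte level of 105606 CPM (group median 72235), the lowest stellate (316 against 554) and biliary sums (25.8 against 42.7) of its group, and a TMM factor of 0.899 beside 1.08 to 1.15 in the other 3.

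Per kilobase of transcript, Scd1 was the most abundant of the 10 genes by a wide margin. The mean over all 48 libraries was 4922 CPM per kb for Scd1, 589.6 for Fads2, 338 for Elovl5, 307 for Fads1 and 221 for Elovl2. The remaining genes were at 28.6 (Elovl6), 20.8 (Fads3), 15.5 (Elovl1), 13.6 (Elovl3) and 8.04 CPM per kb (Scd2). The lengths are those of the authors' tables. For Fads1, Fads2, Fads3 and Elovl3 they were shorter than the GENCODE exon union (3456, 1508, 3269 and 1494 against 4812, 3295, 3792 and 1975 bases). The levels per kb of these genes therefore depend on the gene model. For Scd1 and Scd2 the gap was small (4836 and 5453 against 4892 and 5464 bases). A single gene, Scd1, took between 0.0367% of the reads on genes (HF female control replicate 2) and 6.21% (HFCF male control replicate 1).

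**Figure D1:**
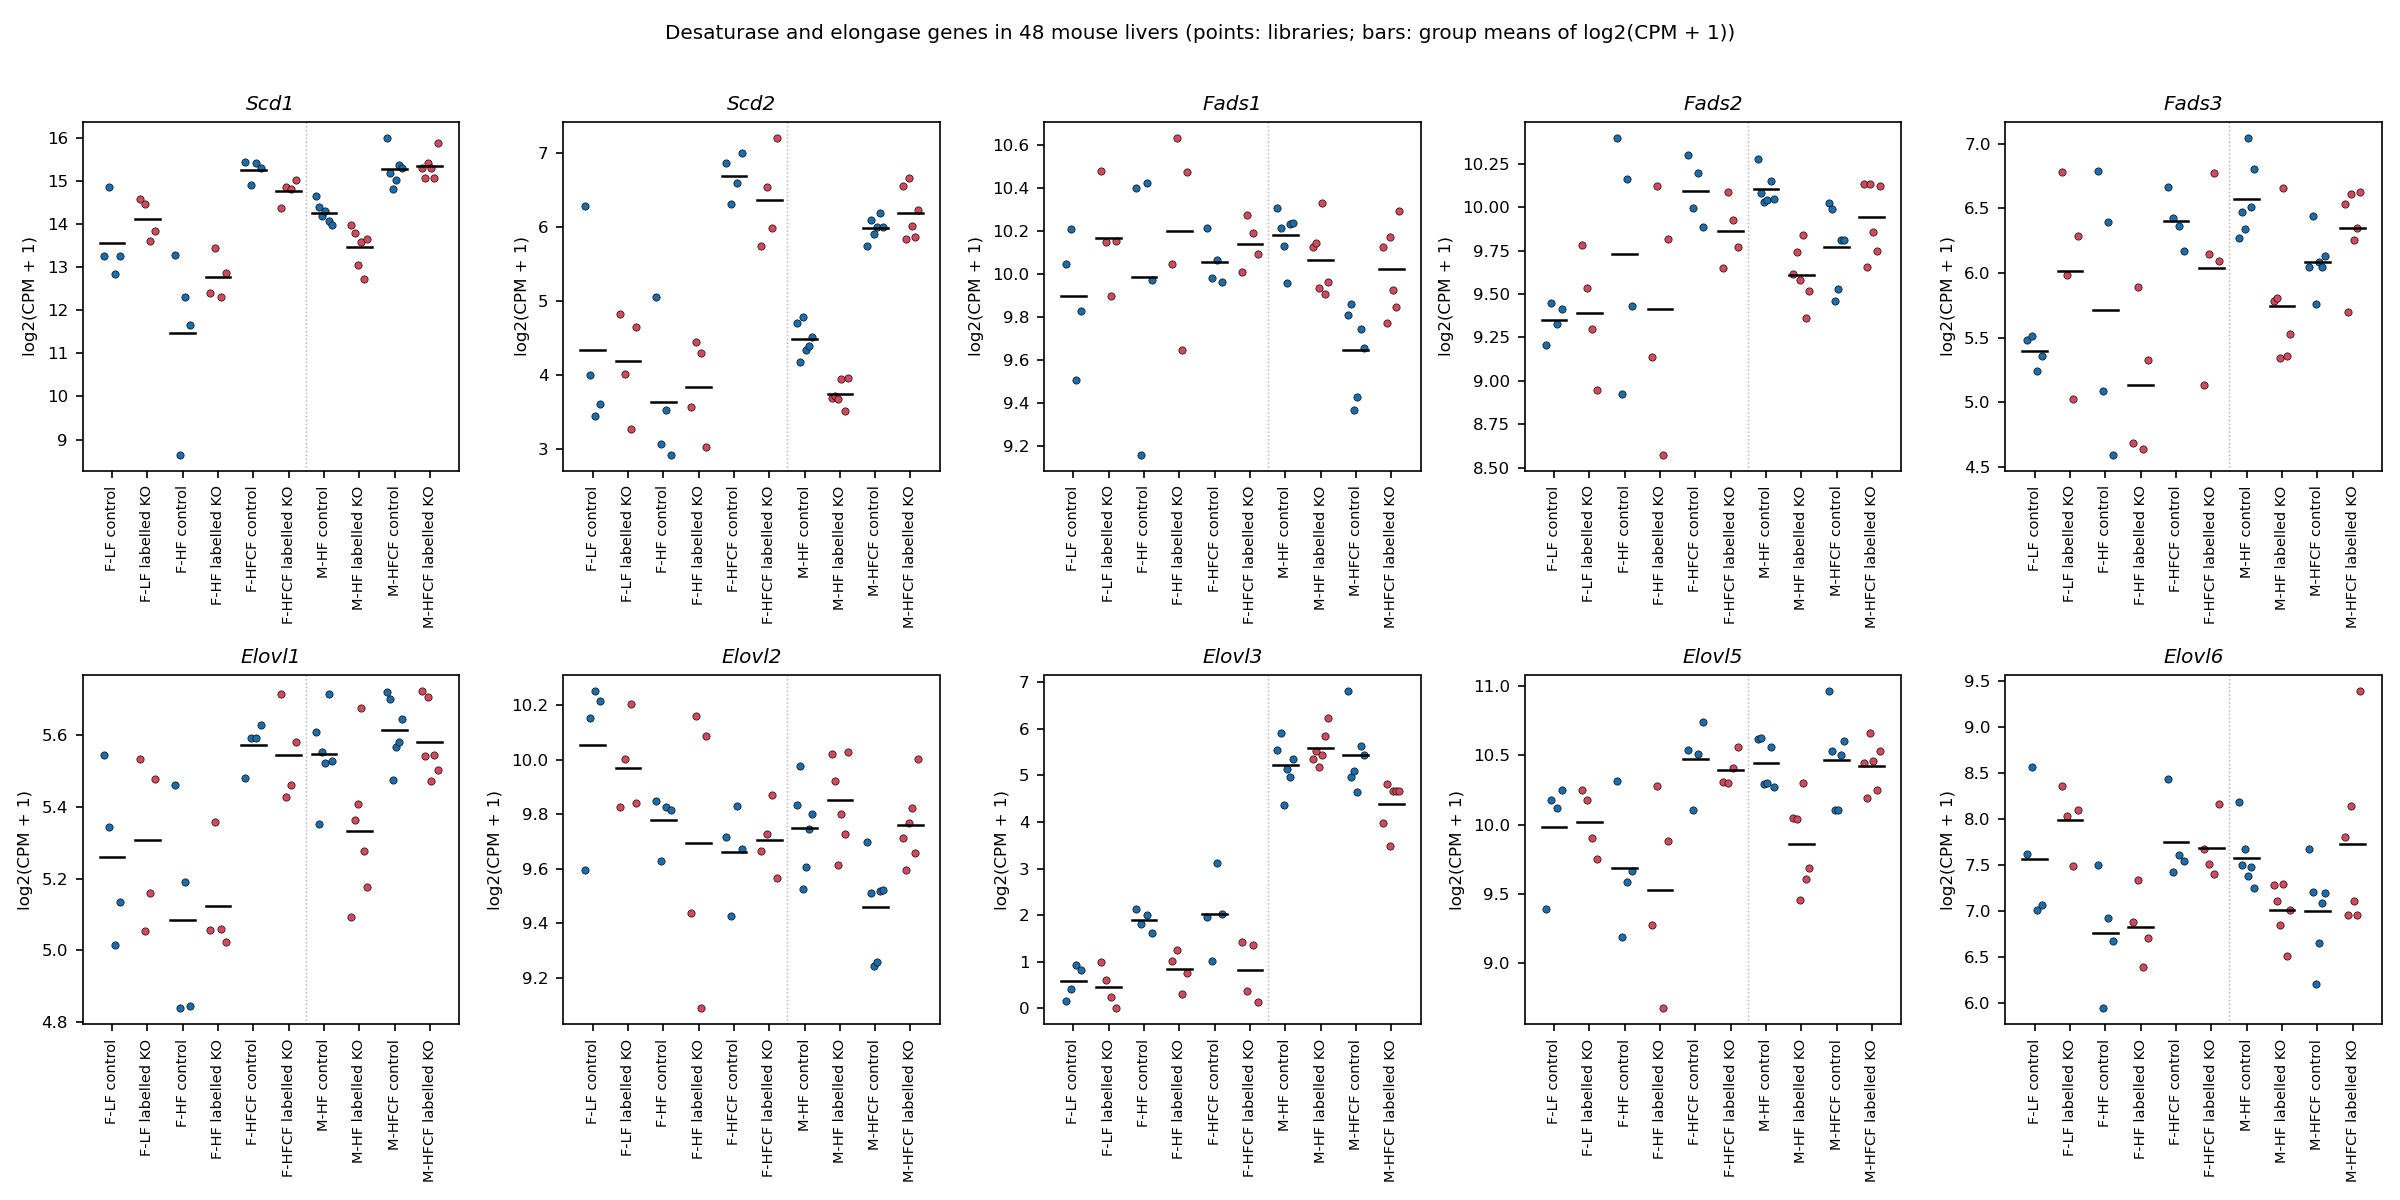
Level of each of the 10 genes in every library, as log2(CPM + 1), by group (6 female groups of 4, 4 male groups of 6); each point is 1 mouse and each bar the group mean on that scale. Elovl3 separates males from females, Scd1 and Scd2 are highest in the HFCF groups, and the group means of Fads1, Elovl1 and Elovl2 span 1.51-fold, 1.44-fold and 1.53-fold.

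The genes differed in how far they ranged over the 10 groups. The highest group mean was 113 times the lowest for Elovl3, 9.08 times for Scd1 and 8.36 times for Scd2. It was 2.63 times for Fads3, 2.25 for Elovl6, 1.80 for Elovl5, 1.69 for Fads2, 1.53 for Elovl2, 1.51 for Fads1 and 1.44 for Elovl1. For Scd1 the order of group means was HF female controls (lowest), HF labelled-knockout females, HF labelled-knockout males, LF female controls, LF labelled-knockout females, HF male controls, HFCF labelled-knockout females, HFCF female controls, HFCF male controls and HFCF labelled-knockout males. Neighbours in that order differed by less than the SD of at least 1 of them, except at 3 steps: from HF labelled-knockout females (7305 ± 2803 CPM) to HF labelled-knockout males (11768 ± 3516), from HF male controls (19923 ± 3402) to HFCF labelled-knockout females (28299 ± 5170.2), and from these to HFCF female controls (39784 ± 6409.6).

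Scd2 was lowest in HF labelled-knockout males (12.5 ± 1.61 CPM) and highest in HFCF female controls (105 ± 21.7 CPM), and the 4 HFCF groups were its 4 highest. Fads2 and Fads3 were both highest in HF male controls (1103 ± 75.9 CPM and 95.97 ± 20.98 CPM). Fads2 was lowest in LF female controls (652 ± 46.98 CPM) and Fads3 in HF labelled-knockout females (36.4 ± 16.1 CPM). Fads1 had its lowest mean in HFCF male controls (806 ± 110.4 CPM) and its highest in HF labelled-knockout females (1216 ± 354 CPM), where the SD was large. HFCF male controls were also lowest for Elovl2 (707 ± 85.6 CPM), which was highest in LF female controls (1079 ± 207 CPM). Those same male controls had the highest Elovl5 (1447 ± 332 CPM) and Elovl1 (48.1 ± 3.13 CPM), while Elovl5 was lowest in HF labelled-knockout females (802 ± 366 CPM) and Elovl1 in HF female controls (33.5 ± 7.39 CPM). Elovl6 was lowest in HF female controls (115 ± 49.5 CPM) and had nearly equal highest means in LF labelled-knockout females (259.7 ± 61.7 CPM) and HFCF labelled-knockout males (259 ± 210.3 CPM). These values are means ± SD, with n = 4 in female and 6 in male groups. The 6 female groups were the 6 lowest for Elovl3, at 0.430 to 3.67 CPM, and the 4 male groups lay at 20.9 to 48.8. These orders are descriptions, and the tests of single differences follow.

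The first question was whether the labelled hepatocyte Pparg knockout changed these genes within 1 sex and diet. In HF males, 6 of the 10 genes were lower in the labelled knockouts, both stearoyl-CoA desaturases among them, and none was higher. Calls here and below rest on edgeR's quasi-likelihood test, with the p-values of the whole gene table corrected together (Benjamini-Hochberg) and an adjusted p under 0.05 counted as a call. The background in HF males was 18.5% of the table called, with 9.88% lower and 8.57% higher. The median log2 change of the 10 genes was -0.53, beside 0.000204 over all genes.

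Scd1 ranged from 16277 to 25702 CPM (median 19374) in the 6 HF male controls and from 6751 to 16116 (median 12570.0) in the 6 labelled knockouts. Every labelled knockout was below every control, and the log2 change was -0.76 (SE 0.18, adjusted p = 0.00821). Scd2, which in adult liver is a minor form, gave 17.1 to 26.7 CPM (median 20.9) in controls and 10.5 to 14.5 (median 12.01) in labelled knockouts. Here too the groups were apart, with a log2 change of -0.80 (SE 0.12, adjusted p = 0.000235), and the sequence overlap with Scd1 shown above applies to this value.

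Fads2, the Δ6-desaturase that starts the polyunsaturated pathway, had a lowest, median and highest value of 1044, 1070.1 and 1242 CPM in HF male controls and 658, 773 and 915 in labelled knockouts. The groups did not overlap, and the log2 change was -0.50 (SE 0.08, adjusted p = 0.000509). Its neighbour Fads3 had 76.1, 88.9 and 131 CPM in controls and 39.5, 49.6 and 99.9 in labelled knockouts, a log2 change of -0.79 (SE 0.20, adjusted p = 0.0124). The groups overlapped through labelled-knockout replicate 4 at 99.9 CPM, and the other 5 labelled knockouts lay at 54.9 CPM or below, under every control. Fads1, the Δ5-desaturase, was 1162 ± 94.3 CPM in controls and 1077 ± 126 in labelled knockouts (SD, n = 6), and the change of -0.11 (SE 0.08, adjusted p = 0.369) did not pass the test.

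Among the elongases, Elovl5, which lengthens polyunsaturated chains of intermediate length, went from 1235, 1387 and 1577 CPM (lowest, median and highest) in controls to 702, 939 and 1258 in labelled knockouts, a log2 change of -0.57 (SE 0.13, adjusted p = 0.00603). Elovl6, which elongates palmitate to stearate, went from 151, 179 and 289.9 to 89.9, 132 and 156 CPM, a log2 change of -0.59 (SE 0.15, adjusted p = 0.0147). Both sets of values overlapped between the groups. Elovl6 lost the call when all 4 male groups were fitted together (adjusted p = 0.215), while all 6 calls held when any 1 of the 12 libraries was left out. Elovl1, an elongase of very long saturated chains, had a log2 change of -0.22 (SE 0.09, adjusted p = 0.111) and passed only without labelled-knockout replicate 4, at -0.29 (adjusted p = 0.0133). Elovl2, which makes the chains that lead to docosahexaenoate, and Elovl3 had log2 changes of 0.10 (SE 0.09, adjusted p = 0.480) and 0.35 (SE 0.22, adjusted p = 0.298).

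Cell type markers moved in the same comparison. The summed hepatocyte markers had a median of 73762 CPM (58859 to 81999) in HF male controls and 99114 (85346 to 100094) in labelled knockouts, with 4 of 5 called higher. Stellate and myofibroblast markers summed to 286 CPM (202 to 342) and 159 (112 to 177), with 2 of 5 called lower. Of 6 macrophage markers, 1 was called higher and 2 lower, and of 4 red blood cell markers 2 were called higher, with summed medians of 120.5 (96.1 to 186) and 308 CPM (90.97 to 701). None of these marker genes was at 0 in either group. Their part in the result was not tested. In whole liver, fewer cells of a type and less RNA per cell cannot be told apart.

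**Figure D2:**
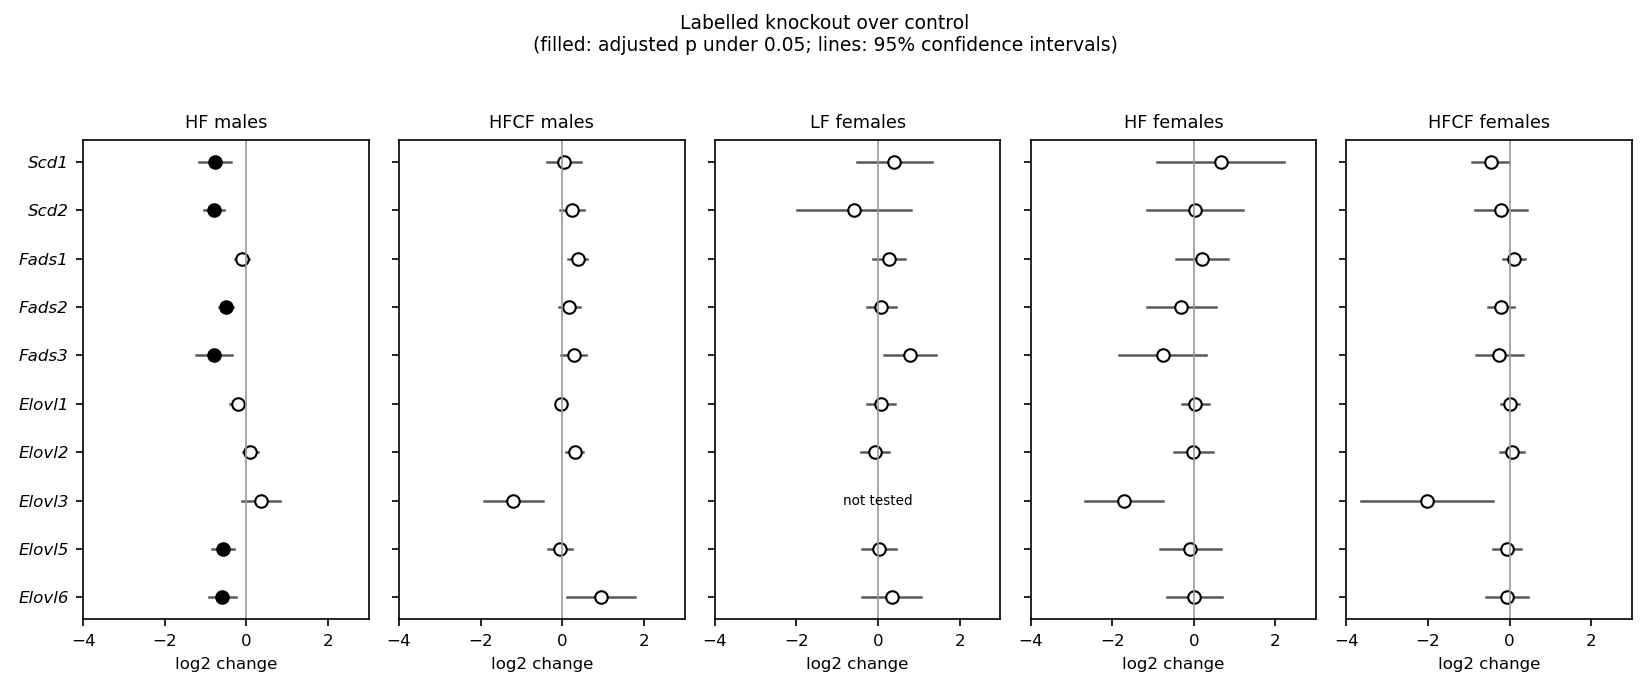
Log2 change of each gene, labelled knockout over control, in the 5 sex and diet settings, with 95% confidence intervals from edgeR; filled symbols passed adjusted p under 0.05. The 6 filled symbols all belong to HF males and lie below 0; Elovl3 was not tested in LF females.

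In HFCF males, 0 of the 10 genes were called by edgeR's quasi-likelihood test (2.21% of all genes were), 4 had an unadjusted p under 0.05, and the Wald test of DESeq2 called 3 (Fads1, Elovl2 and Elovl3). The share of all genes that the Wald test called is not given here or below, and each background is from edgeR. Elovl3 had a lowest, median and highest value of 24.04, 37.8 and 111 CPM in controls and 10.1, 24.3 and 27.03 in labelled knockouts, a log2 change of -1.20 (SE 0.34, adjusted p = 0.0869), with overlapping groups. Without HFCF male control replicate 1, at 111 CPM the highest control, the Elovl3 change was -0.77 (adjusted p = 0.0544). With all 4 male groups in 1 fit, Fads1 and Elovl3 were called (adjusted p = 0.0372 and 0.0290). Fads1 was 806 ± 110.4 and 1047 ± 149 CPM and Elovl2 707 ± 85.6 and 869.6 ± 89.04 CPM in controls and labelled knockouts (SD, n = 6), with log2 changes of 0.38 (SE 0.11, adjusted p = 0.0935) and 0.30 (SE 0.09, adjusted p = 0.117). Without HFCF male control replicate 1 both were called, Fads1 at 0.42 (adjusted p = 0.0363) and Elovl2 at 0.36 (adjusted p = 0.0237), where 7.09% of all genes were called. That library had the lowest stellate marker sum of its group (299 CPM against a median of 648), the lowest biliary sum (16.9 against 46.3) and the highest Scd1, at 65636 CPM. The Scd1 change of 0.04 had a 95% interval of -0.38 to 0.46 (log2), and that of Scd2, 0.24, an interval of -0.05 to 0.53.

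In females the labelled knockout gave no call for any of these genes on any diet. The counts by edgeR's quasi-likelihood test were 0 of 9 tested genes on LF (background 0.00%, 1 gene at unadjusted p under 0.05), 0 of 10 on HF (background 0.00%, 1 gene) and 0 of 10 on HFCF (background 0.0534%, 2 genes). The Wald test of DESeq2 also called 0 in each. These 3 comparisons set 4 mice against 4 and called 0, 0 and 8 genes of the whole table. Elovl3 in HF females was 3.41, 2.49, 3.01 and 2.05 CPM in the 4 controls and 1.02, 1.39, 0.240 and 0.699 in the 4 labelled knockouts. All controls were above all labelled knockouts, and the log2 change of -1.71 (SE 0.43, adjusted p = 0.522) did not pass. On HFCF the Elovl3 values were 2.89, 1.01, 7.69 and 3.10 CPM in controls and 1.67, 0.298, 1.58 and 0.103 in labelled knockouts, with overlap and a change of -2.02 (SE 0.73, adjusted p = 0.547). Scd1 in HFCF females was 44345, 30584, 43979 and 40229 CPM in controls and 21158, 29547, 28976 and 33513 in labelled knockouts, a change of -0.47 (SE 0.21, adjusted p = 0.553).

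A direct test asked whether the knockout effect differed between the HFCF and HF diets in males. It did for Scd2, Fads2 and Fads3, each called lower in the labelled knockouts on HF and not called on HFCF. These 3 of 10 genes compare with 1.56% of all genes, 0.987% with a more positive effect on HFCF. The 3 tests share the HF male libraries already described, so they are not independent of the HF result.

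Scd2 on HFCF had a lowest, median and highest value of 52.6, 63.3 and 72.5 CPM in male controls and 56.4, 68.8 and 101 in labelled knockouts, a log2 change of 0.24 (SE 0.14), beside -0.80 on HF. The difference of the effects was 1.02 (SE 0.19, adjusted p = 0.00720). Fads2 on HFCF had 702, 898 and 1040.3 CPM in controls and 805, 1021 and 1122 in labelled knockouts, and the effects differed by 0.65 (SE 0.15, adjusted p = 0.0236). Both calls held without any 1 of the 24 libraries. Fads3 on HFCF had 53.3, 65.99 and 85.6 and 50.99, 86.04 and 97.7 CPM, and its difference of 1.07 (SE 0.27, adjusted p = 0.0408) was kept in 8 of 24 fits that left out 1 library, those without HF control replicates 1 or 2, HF labelled-knockout replicates 2 or 4, HFCF control replicates 1 or 2 or HFCF labelled-knockout replicates 2 or 4, with an adjusted p of at most 0.0807 in the rest.

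**Figure D3:**
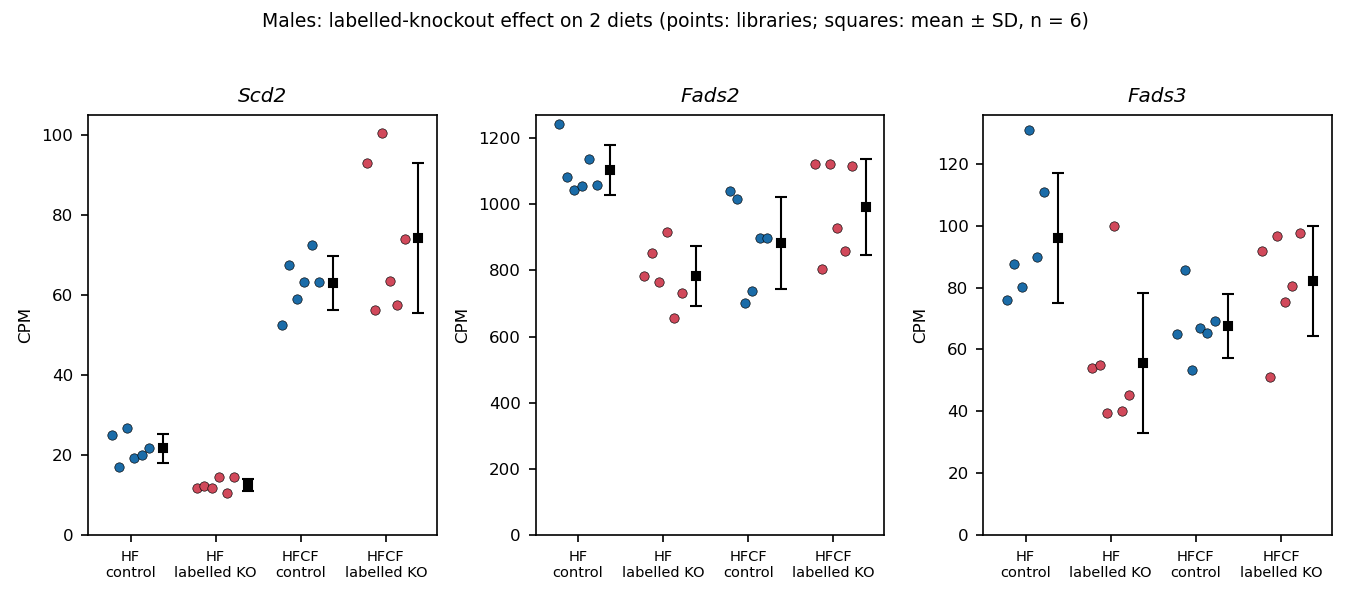
CPM of Scd2, Fads2 and Fads3 in the 4 male groups; points are mice and squares with bars the mean ± SD (n = 6). On HF the labelled knockouts lie below the controls, apart from 1 mouse for Fads3, and on HFCF the groups overlap.

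The other genes did not pass this test. The difference of the effects was 0.79 (SE 0.28, adjusted p = 0.132) for Scd1, 1.53 (SE 0.45, adjusted p = 0.0733) for Elovl6, 0.48 (SE 0.14, adjusted p = 0.0747) for Fads1 and -1.57 (SE 0.43, adjusted p = 0.0616) for Elovl3. For Elovl6, HFCF male labelled-knockout replicate 6 had 668 CPM, beside 123 to 281 in the rest of its group. Scd1 was called without HFCF male control replicate 1 at 0.97 (adjusted p = 0.0441), Fads1 without HF male labelled-knockout replicate 4 at 0.54 (adjusted p = 0.0421), and Elovl3 without HF male control replicate 2 at -1.73 (adjusted p = 0.0328) or HFCF male control replicate 4 at -1.69 (adjusted p = 0.0454). In females the corresponding test (HFCF against HF) called 0 of 10 genes by edgeR's quasi-likelihood test (background 0.00%, 0 at unadjusted p under 0.05), and HF against LF called 0 of 10 (background 0.00%, 1 at unadjusted p under 0.05). The Wald test of DESeq2 called 6 genes in males (Fads1, Elovl3 and Elovl6 added) and 0 in both female tests. No share of all genes stands beside these Wald counts.

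Whether the knockout effect differed between the sexes was tested on both diets. By edgeR's quasi-likelihood test, 0 of 10 genes were called on HF (background 0.00%, 2 at unadjusted p under 0.05) and 0 of 10 on HFCF (background 0.00%, 1 at unadjusted p under 0.05). The Wald test of DESeq2 called 1 on HF (Elovl3) and 0 on HFCF. The effects in HF males are not shown to differ from those in HF females. On HF the male effect minus the female effect was -0.82 (SE 0.48, adjusted p = 0.548) for Scd2 and became -1.63 (adjusted p = 0.0177) without HF female control replicate 1, where the background was 1.88%. That library had the highest Scd2 of its group (32.4 CPM, the others 6.57 to 10.5) together with the highest stellate marker sum (419 CPM, group median 84.4) and biliary marker sum (28.2, group median 9.29).

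The next question was what the HFCF diet changed against the HF diet. Scd1 and Scd2 were higher on HFCF in all 4 settings, and in each of them every HFCF mouse was above every HF mouse. Of the other 8 genes, Fads1, Fads2, Fads3 and Elovl2 were called lower in male controls, and Fads2, Fads3, Elovl1, Elovl5 and Elovl6 were called higher and Elovl3 lower in labelled-knockout males. The direct test between these 2 settings is the male knockout by diet test above, which called Fads2 and Fads3 among the 8. These comparisons share their HF libraries with the knockout and sex comparisons.

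In female controls, Scd1 was 9967, 399, 5032 and 3245 CPM in the 4 HF mice and 44345, 30584, 43979 and 40229 in the 4 HFCF mice, a log2 change of 3.11 (SE 0.73, adjusted p = 0.0145). The HF value of replicate 2 was the lowest of all 48 libraries. Scd2 was 32.4, 7.35, 10.5 and 6.57 CPM on HF and 116, 78.8, 95.9 and 128 on HFCF, a change of 2.89 (SE 0.48, adjusted p = 0.00569). Both calls held without any 1 of the 8 libraries, and without HF control replicate 1 the changes were 3.81 (adjusted p = 0.00187) for Scd1 and 3.71 (adjusted p = 3.36e-05) for Scd2. In this comparison 5 of 10 genes were higher, where 30.8% of all genes were called and 16.9% were higher. The elongases Elovl1, Elovl5 and Elovl6 were the other members of the 5, with changes of 0.50 (SE 0.14, adjusted p = 0.0294), 0.76 (SE 0.23, adjusted p = 0.0354) and 0.97 (SE 0.32, adjusted p = 0.0473). These 3 calls were close to the threshold: Elovl1 kept it only without HF control replicate 1 or HFCF control replicate 3, Elovl5 only without HF control replicate 1 or HFCF control replicate 2 and Elovl6 only without HF control replicate 1.

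In labelled-knockout females, Scd1 was 5432, 11188, 5083 and 7517 CPM on HF and 21158, 29547, 28976 and 33513 on HFCF, a change of 1.97 (SE 0.27, adjusted p = 0.00308). Scd2 was 10.9, 20.9, 18.7 and 7.13 and 52.6, 92.3, 62.8 and 147 CPM, a change of 2.63 (SE 0.40, adjusted p = 0.00424). With Elovl1 at 0.43 (SE 0.11, adjusted p = 0.0248) and Elovl6 at 0.87 (SE 0.22, adjusted p = 0.0264), 4 of 10 genes were higher, beside 14.5% of all genes called and 8.44% higher. The groups did not overlap for any of these 4 genes, which rests on the same libraries as the calls. The share of all genes without overlap was not counted. Elovl1 and Elovl6 lost the call without HF labelled-knockout replicates 1 or 4 or HFCF labelled-knockout replicate 4. With all 6 female groups in 1 fit Elovl6 missed the threshold (adjusted p = 0.0730). Fads3 and Elovl5 missed it at 0.96 (SE 0.35, adjusted p = 0.0974) and 0.76 (SE 0.28, adjusted p = 0.0965), and the Wald test of DESeq2 called both, 6 genes in all. With edgeR, Elovl5 passed with all 6 female groups in 1 fit (adjusted p = 0.0481) and without HF labelled-knockout replicate 2, at 1.04 (adjusted p = 0.0363). Fads3 passed without HFCF labelled-knockout replicate 1, at 1.19 (adjusted p = 0.0157), where 29.1% of all genes were called.

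In male controls, Scd1 had a lowest, median and highest value of 16277, 19374 and 25702 CPM on HF and 28652, 38636 and 65636 on HFCF, a log2 change of 1.06 (SE 0.18, adjusted p = 0.00195). Scd2 had 17.1, 20.9 and 26.7 and 52.6, 63.3 and 72.5 CPM, a change of 1.55 (SE 0.11, adjusted p = 4.35e-06). With these 2 genes higher and 4 lower, 6 of 10 were called, beside 22.3% of all genes (13.0% higher, 9.31% lower). Fads1 was 994, 1193 and 1265 CPM on HF and 659.9, 831 and 929 on HFCF, without overlap, a change of -0.52 (SE 0.09, adjusted p = 0.00231). Fads3 fell from 95.97 ± 20.98 to 67.5 ± 10.4 CPM (SD, n = 6), a change of -0.50 (SE 0.13, adjusted p = 0.0157) that missed the threshold with all 4 male groups in 1 fit (adjusted p = 0.0559). Fads2, at -0.31 (SE 0.10, adjusted p = 0.0335), lost the call without HF control replicates 1, 2 or 5 or HFCF control replicates 3, 4, 5 or 6, and Elovl2, at -0.28 (SE 0.09, adjusted p = 0.0438), kept it only without HF control replicates 3 or 4 or HFCF control replicate 1. Elovl6 had a change of -0.53 (SE 0.21, adjusted p = 0.0768) and passed without HFCF control replicate 1, at -0.69 (adjusted p = 0.00834), where 37.00% of all genes were called, and by the Wald test of DESeq2 (adjusted p = 0.0438).

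In labelled-knockout males, 8 of 10 genes were called, 7 higher and 1 lower, beside 41.7% of all genes (21.6% higher, 20.0% lower). Scd1 went from 6751, 12570.0 and 16116 CPM (lowest, median and highest) to 34539.6, 40168 and 60786, a change of 1.85 (SE 0.20, adjusted p = 7.22e-06), and Scd2 from 10.5, 12.01 and 14.5 to 56.4, 68.8 and 101, a change of 2.57 (SE 0.15, adjusted p = 1.18e-07). Neither gene's groups overlapped. Elovl5 and Fads2 rose by smaller amounts, 0.55 (SE 0.13, adjusted p = 0.00383) and 0.34 (SE 0.10, adjusted p = 0.0147), and held without any 1 of the 12 libraries. Elovl3, an elongase of long saturated and monounsaturated chains, was the gene that fell, from 35.3, 43.4 and 74.5 to 10.1, 24.3 and 27.03 CPM, without overlap, a change of -1.23 (SE 0.22, adjusted p = 0.000503). The other 3 calls were close to the threshold. Fads3, at 0.57 (SE 0.21, adjusted p = 0.0418), kept its call only without HF labelled-knockout replicate 4 or HFCF labelled-knockout replicate 2 and lost it with the Wald test of DESeq2 (adjusted p = 0.0561), and Elovl1, at 0.25 (SE 0.09, adjusted p = 0.0358), only without HF labelled-knockout replicates 3 or 4 or HFCF labelled-knockout replicates 2, 4 or 6, and not without the filter on low counts (adjusted p = 0.0516). Elovl6, at 1.001 (SE 0.36, adjusted p = 0.0341), lost it without HF labelled-knockout replicates 2, 3, 5 or 6 or HFCF labelled-knockout replicates 3 or 6, and its highest HFCF mouse, replicate 6 at 668 CPM, lay far above the other 5 (123 to 281).

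**Figure D4:**
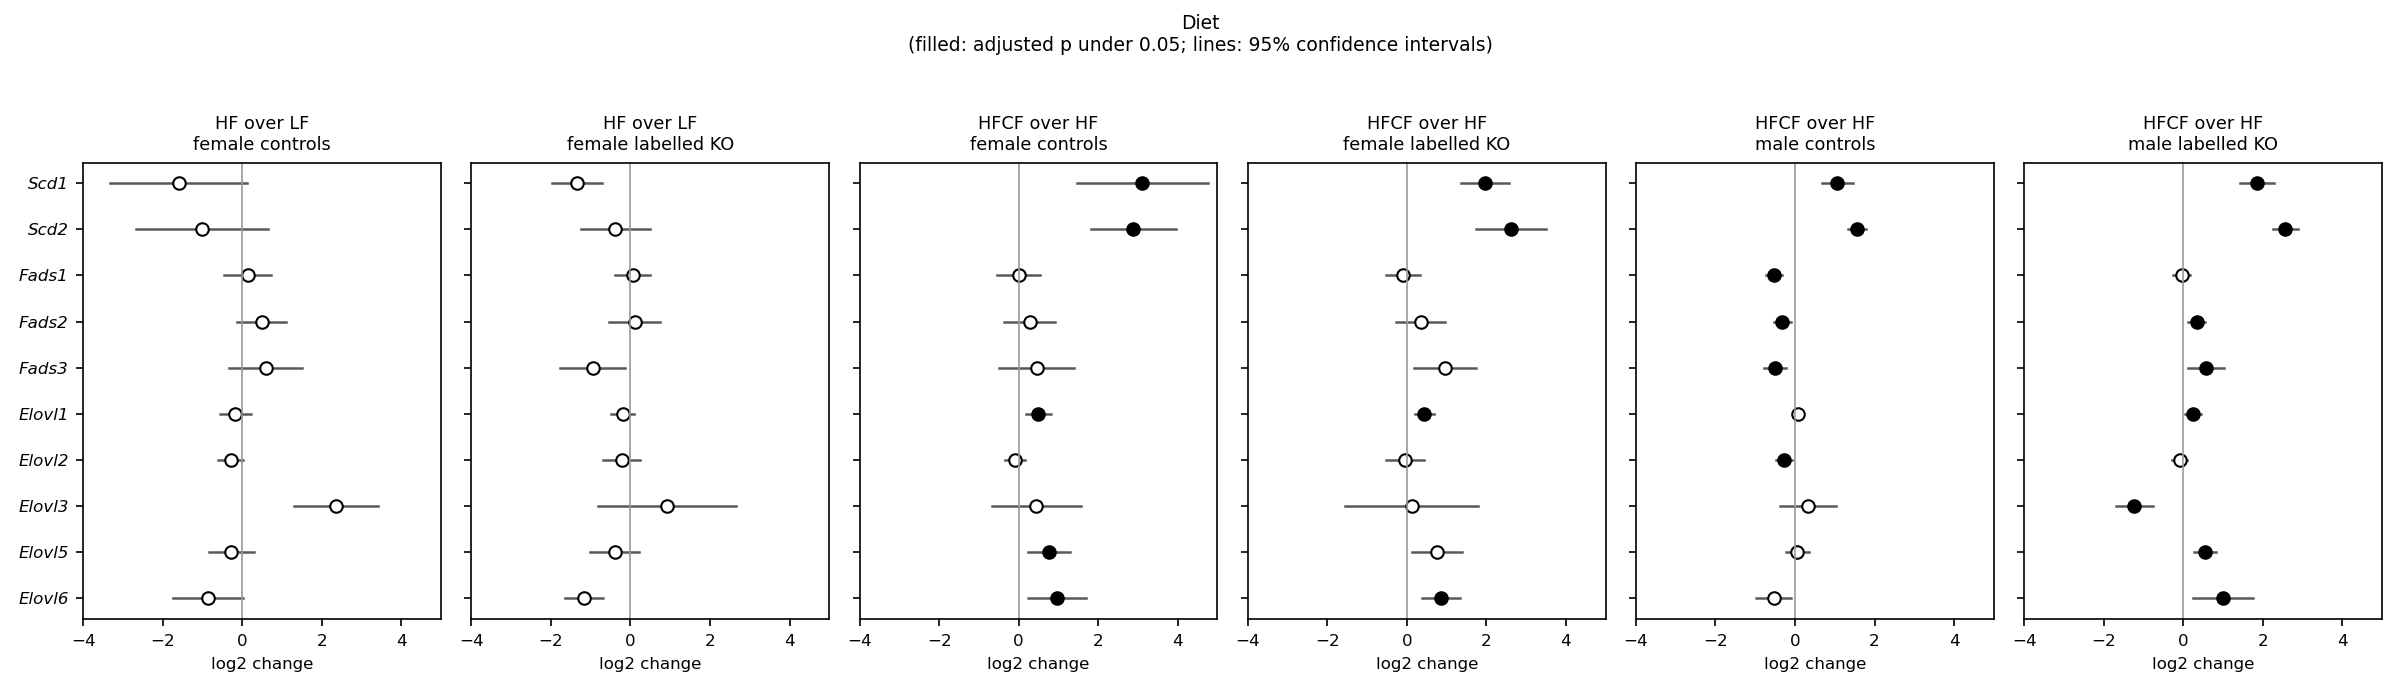
Log2 change of each gene between diets, HF over LF (females only) and HFCF over HF, in controls and labelled knockouts, with 95% confidence intervals; filled symbols passed adjusted p under 0.05. Scd1 and Scd2 are filled and above 0 in all 4 HFCF over HF comparisons, and no symbol is filled for HF over LF.

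Cell type markers also separated the 2 diets. Summed stellate and myofibroblast markers had medians of 286 CPM on HF and 648 (299 to 679) on HFCF in male controls, and of 84.4 (54.9 to 419) and 703 (465 to 806) in female controls. All 4 biliary markers were called higher on HFCF in all 4 settings, and 5, 5, 5 and 3 of 6 macrophage markers in male controls, labelled-knockout males, female controls and labelled-knockout females. Of 5 hepatocyte markers, 3, 5, 4 and 0 were called lower in that order, with summed medians of 73762 and 47224 CPM in male controls and 96352 and 60998 in female controls. None of these marker genes was at 0 in these groups. Their part in the Scd1 and Scd2 results was not tested.

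Against the LF diet, which only females received, the HF diet gave no call. By edgeR's quasi-likelihood test 0 of 10 genes were called in controls (background 0.696%, 1 at unadjusted p under 0.05) and 0 of 10 in labelled knockouts (background 0.155%, 3 at unadjusted p under 0.05). Elovl3 in controls was 0.115, 0.325, 0.903 and 0.762 CPM on LF and 3.41, 2.49, 3.01 and 2.05 on HF, without overlap, at 2.36 (SE 0.47, adjusted p = 0.0553), and rested on at most 15 reads per LF control library. Scd1 in labelled knockouts was 24398, 22606, 12521 and 14586 CPM on LF and 5432, 11188, 5083 and 7517 on HF, and Elovl6 was 328, 261, 178 and 272 and 117, 160.3, 82.98 and 103. Every HF mouse was below every LF mouse for both genes, and the changes of -1.35 (SE 0.28, adjusted p = 0.0864) and -1.17 (SE 0.22, adjusted p = 0.0642) missed the threshold, with Elovl6 passing without LF labelled-knockout replicate 3, at -1.34 (adjusted p = 0.0432). The Wald test of DESeq2 called these 3, Elovl3 in controls and Scd1 and Elovl6 in labelled knockouts, as did edgeR without the filter on low counts. In controls Scd1 was 9799, 29616, 7321 and 9884 CPM on LF, a range that overlaps the HF values, and the change was -1.60 (SE 0.77, adjusted p = 0.337).

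HFCF against LF gave more calls. In female controls, 5 of 10 genes were higher on HFCF, beside 35.2% of all genes called and 18.4% higher. Fads3 was 43.6, 44.7, 36.8 and 39.9 CPM on LF and 100.5, 84.8, 81.3 and 70.8 on HFCF, a change of 1.01 (SE 0.11, adjusted p = 0.000457). Fads2 was 591, 696, 642 and 680.5 and 1263, 1021, 1172 and 944 CPM, a change of 0.74 (SE 0.12, adjusted p = 0.00171). For both genes all HFCF mice were above all LF mice, and the calls held without any 1 library. With all female groups in 1 fit, Fads3 missed the threshold (adjusted p = 0.0565). Elovl3 rose by 2.77 (SE 0.66, adjusted p = 0.00984), with 2.89, 1.01, 7.69 and 3.10 CPM on HFCF, and by 2.14 (adjusted p = 0.0194) without HFCF control replicate 3. Scd1 rose by 1.47 (SE 0.41, adjusted p = 0.0182) and lost the call without LF control replicate 4. Without LF control replicate 2, the highest LF control, its change was 2.12 (adjusted p = 0.00120).

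Scd2 in the same comparison was 77.3, 14.96, 9.93 and 11.2 CPM on LF, where replicate 1 lay far above the rest. It rose by 1.84 (SE 0.60, adjusted p = 0.0365). Among the fits that left out 1 library it kept the call without LF control replicate 1 or HFCF control replicate 3, and without LF control replicate 1 the change was 3.12 (adjusted p = 1.65e-05). Leaving out LF control replicate 1 also gave calls for Elovl1, at 0.41 (adjusted p = 0.00901), and Elovl2, at -0.54 (adjusted p = 0.00686). In that fit 37.9% of all genes were called. In all, 7 genes were called by the Wald test of DESeq2, adding Elovl2 (lower, adjusted p = 0.0231) and Elovl5 (higher, adjusted p = 0.0455). In labelled knockouts Scd2 was the 1 gene called of 9 tested (background 12.0%, 8.26% higher), going from 27.4, 15.1, 8.64 and 24.1 to 52.6, 92.3, 62.8 and 147 CPM, a change of 2.27 (SE 0.38, adjusted p = 0.00493). Scd1 there had a change of 0.64 (SE 0.26, adjusted p = 0.136) and passed without HFCF labelled-knockout replicate 1, at 0.73 (adjusted p = 0.0454), where 23.8% of all genes were called.

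Cell type markers separated these diets as well. From LF to HFCF in female controls the summed medians went from 93959.7 CPM (83789 to 108415) to 60998 CPM (51983 to 64113) for 5 hepatocyte markers, all called lower. They went from 126 CPM (112 to 199) to 703 CPM (465 to 806) for stellate markers, 3 of 5 called higher, and from 297 CPM (211 to 468) to 653 CPM (589.7 to 715) for macrophage markers, 5 of 6 called higher. All 4 biliary markers were called higher, in controls and in labelled knockouts, and in labelled knockouts 0 of 5 hepatocyte, 3 of 5 stellate and 5 of 6 macrophage markers were called, the latter 2 sets higher. None of these genes was at 0 in these groups, and their part in the results was not tested.

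Males and females were compared within each diet and genotype label. Elovl3 was higher in males in all 4 comparisons and was the 1 gene called in every one of them. Sex cannot be told apart here from any difference in how male and female mice were handled. On HF, Elovl3 had a lowest, median and highest value of 19.6, 36.9 and 59.5 CPM in male controls, against 3.41, 2.49, 3.01 and 2.05 in the female controls, a log2 difference of 3.80 (SE 0.31, adjusted p = 2.54e-05). In HF labelled knockouts the males had 35.3, 43.4 and 74.5 CPM and the females 1.02, 1.39, 0.240 and 0.699, a difference of 5.89 (SE 0.35, adjusted p = 4.29e-07). On HFCF the differences were 3.70 (SE 0.55, adjusted p = 0.00313) in controls (4.37 (adjusted p = 0.00251) without female replicate 3) and 4.57 (SE 0.49, adjusted p = 0.000158) in labelled knockouts. No female reached the lowest male in any of the 4, and all 4 calls held without any 1 library. In LF females, with no male group to compare, Elovl3 was 0.115, 0.325, 0.903 and 0.762 CPM in controls and 1.003, 0.534, 0.184 and 0 in labelled knockouts. The value of 0 in LF labelled-knockout replicate 4 was 0 reads, which allows up to 0.179 CPM (3 reads, counting error only).

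**Figure D5:**
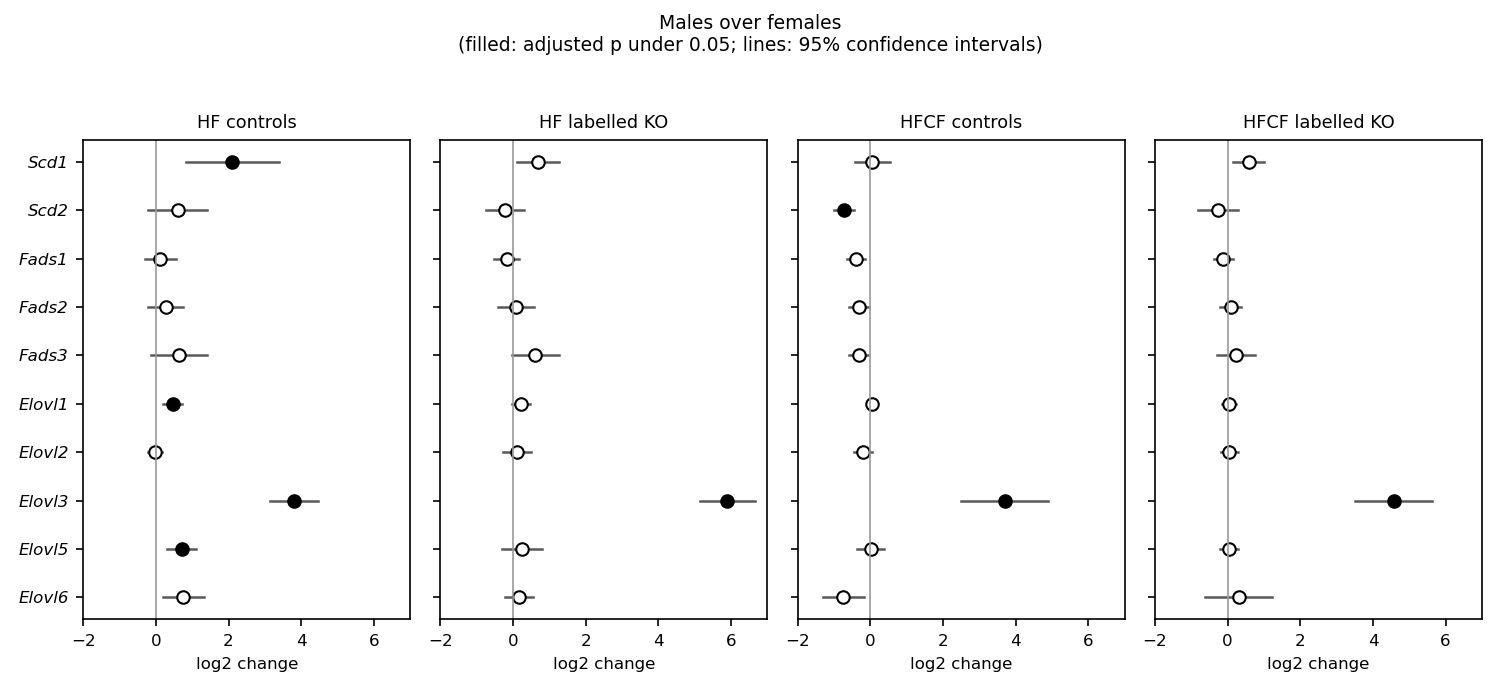
Log2 difference of each gene, males over females, in the 4 diet and genotype settings, with 95% confidence intervals; filled symbols passed adjusted p under 0.05. Elovl3 lies between 3.70 and 5.89 in all 4 settings, and the other genes lie nearer 0.

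In HF controls 4 of 10 genes were higher in males, beside 18.1% of all genes called and 8.52% higher. Scd1 differed by 2.10 (SE 0.59, adjusted p = 0.0292), all 6 males above all 4 females, and lost the call without male replicate 1 or female replicates 3 or 4. Without female replicate 1 the Scd1 difference was 2.79 (adjusted p = 0.00216). Elovl5 differed by 0.71 (SE 0.18, adjusted p = 0.0197) and lost the call without female replicates 2, 3 or 4. Elovl1 differed by 0.46 (SE 0.12, adjusted p = 0.0240) and lost it without male replicates 1 or 5 or female replicates 2 or 4. Without HF female control replicate 1, 7 genes were called, where the background was 34.4%, with Scd2 at 1.42 (adjusted p = 8.64e-05), Fads3 at 1.06 (adjusted p = 0.0211) and Elovl6 at 1.06 (adjusted p = 0.00312) added. Elovl6 was also called without the filter on low counts (adjusted p = 0.0419). The summed stellate markers had a median of 286 CPM (202 to 342) in male and 84.4 CPM (54.9 to 419) in female HF controls, and the hepatocyte markers one of 73762 CPM (58859 to 81999) and 96352 CPM (86922 to 102691). By edgeR's quasi-likelihood test 0 of the 5 stellate and 0 of the 5 hepatocyte markers were called (1 and 2 at unadjusted p under 0.05), and their part in the result was not tested. In HF labelled knockouts Elovl3 was the 1 gene called of 10 (background 14.3%, 7.32% higher), and Scd1, at 0.68 (SE 0.26, adjusted p = 0.101), passed without male replicate 5, at 0.80 (adjusted p = 0.0482), or female replicate 2, at 0.96 (adjusted p = 0.0315).

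On HFCF, Scd2 was lower in male than in female controls, with 52.6, 63.3 and 72.5 CPM (lowest, median and highest) in the 6 males and 116, 78.8, 95.9 and 128 in the 4 females. The groups did not overlap and the difference was -0.73 (SE 0.13, adjusted p = 0.00738). It held without any 1 library but not when all 10 groups were fitted together (adjusted p = 0.425). With Elovl3 this made 2 of 10 genes, beside 2.63% of all genes (1.30% higher, 1.34% lower). Without HFCF male control replicate 1, Fads1 was called at -0.44 (adjusted p = 0.0417) and Elovl6 at -0.90 (adjusted p = 0.0439), where 4.24% of all genes were called. With the Wald test of DESeq2, Fads1 was also called (adjusted p = 0.0103). In HFCF labelled knockouts Elovl3 was the 1 gene called of 10 (background 5.40%, 3.41% higher), and the Wald test added Scd1 (adjusted p = 0.0175).

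A test of whether the HFCF against HF change differed between males and females called 0 of 10 genes by edgeR's quasi-likelihood test, in controls (background 0.00646%, 8 at unadjusted p under 0.05) and in labelled knockouts (background 0.0130%, 0 at unadjusted p under 0.05). In controls the male change minus the female change was negative for all 10 genes, among them Scd1 at -2.05 (SE 0.64, adjusted p = 0.196), Scd2 at -1.34 (SE 0.41, adjusted p = 0.196) and Elovl6 at -1.50 (SE 0.40, adjusted p = 0.161). The Wald test of DESeq2 called 2 in controls (Scd1 and Elovl6) and 0 in labelled knockouts. The count turned on HF female control replicate 1. Without it 7 genes were called, where 10.8% of all genes were, with Scd1 at -2.73 (adjusted p = 0.00873), Scd2 at -2.14 (adjusted p = 1.95e-05) and Elovl6 at -1.79 (adjusted p = 0.00809). Fads2, Fads3, Elovl1 and Elovl5 were also called then, at -0.83 (adjusted p = 0.0375), -1.37 (adjusted p = 0.0217), -0.56 (adjusted p = 0.00744) and -0.95 (adjusted p = 0.0155). The marker sums of that library are given above, and their part in the result was not tested.

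Other genes of the pathway were read from 5 lists with 40 genes in all, covering further family members, partners of the elongation cycle and electron transfer, fatty acid supply, regulators and the peroxisomal steps of docosahexaenoate synthesis. In HF males 14 of 36 tested genes were lower in the labelled knockouts and 2 higher, beside 18.5% of all genes called. Lower were Elovl7 (log2 change -2.13), another elongase, Acacb (-0.84) and Acaca (-0.51), which make malonyl-CoA, Me1 (-0.80), which makes NADPH, and 4 of 5 peroxisomal genes, with the thiolase Acaa1b at -1.28. The regulators Mid1ip1 and Nr1h3 (LXRα) were higher, by 0.43 and 0.26. Of these named genes, Acaca kept its call in 9 and Mid1ip1 in 7 of the 12 fits that each left out 1 library. In HFCF males 4 of 37 were lower, beside 2.21% of all genes called, with Acaa1b at -0.87 and the ketoacyl reductase Hsd17b12 at -0.42 (kept in 7 of 12 such fits), and 1 was higher, Pparg itself at 0.81. In females the labelled knockout gave 1 call among the pathway genes, Pparg on HFCF (0.97, adjusted p = 0.0422). By edgeR's quasi-likelihood test 0 of 36 tested genes were called on LF, 0 of 36 on HF and 1 of 37 on HFCF. The backgrounds were 0.00%, 0.00% and 0.0534%, and 2, 8 and 7 pathway genes had an unadjusted p under 0.05. The Pparg call was kept in 1 of the 8 fits that each left out 1 library, with an adjusted p of up to 0.220 from edgeR. Srebf1, which encodes SREBP-1c, was called in 0 of the 24 comparisons and tests of edgeR's quasi-likelihood fit, and its change in HF males was 0.34 (adjusted p = 0.0692, unadjusted p = 0.0146); it had an unadjusted p under 0.05 in 3 of the 24.

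HFCF over HF gave 3 of 37 tested pathway genes higher and 10 lower in male controls, where 22.3% of all genes were called, and 9 and 13 of 37 in labelled-knockout males, where 41.7% were. It gave 7 and 6 of 37 in female controls (30.8% of all genes) and 3 and 1 of 36 in labelled-knockout females (14.5%). Elovl7 was higher in all 4, by 1.16, 2.63, 2.28 and 2.94 in that order, as was the dehydratase Hacd4, by 1.03, 1.17, 1.59 and 1.36. The Elovl7 call in female controls was kept in 2 of the 8 fits that each left out 1 library, with log2 changes from 1.95 to 3.54, and its groups overlapped. The sphingolipid desaturase Degs2 was higher in the first 3, by 1.39, 2.14 and 2.17. Scap, which escorts SREBPs, was lower in all 4, with log2 changes of -0.36, -0.36, -0.39 and -0.64, the last kept in 5 of 8 such fits. Insig1, which holds SREBPs in the endoplasmic reticulum, fell by 1.13 in male controls and by 1.02 in labelled-knockout males. HF over LF called 0 of 36 tested genes by edgeR's quasi-likelihood test in female controls and 0 of 36 in labelled knockouts, with 9 and 8 at unadjusted p under 0.05. In HF controls 11 of 37 tested pathway genes were higher in males and 3 lower, beside 18.1% of all genes called, with Insig2 at 1.24.

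Of the 10 genes, 6 had a promoter entry in RefSeq (GRCm38.p6), 8 entries in all. Those of Fads3 and Elovl5 are printed because each holds the CCAAT motif 2 times. Both genes were lower in HF labelled-knockout males and higher on HFCF in labelled-knockout males. Fads2 and Elovl6 had the same calls, and their entries held 0 CCAAT matches. A link between the motif and these calls was not tested. Capitals mark CCAAT or its reverse complement ATTGG. The windows are chr19:10041428-10041547 and chr9:77917244-77917363, both on the plus strand, and each ends just before the annotated gene start.
Fads3 promoter: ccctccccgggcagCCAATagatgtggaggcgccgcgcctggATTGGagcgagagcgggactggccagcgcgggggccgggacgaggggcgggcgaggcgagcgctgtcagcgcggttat
Elovl5 promoter: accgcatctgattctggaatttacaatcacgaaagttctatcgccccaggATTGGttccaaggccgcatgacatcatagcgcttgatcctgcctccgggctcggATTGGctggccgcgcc
CCAAT matches, on either strand, began 106 and 78 bases before the start of Fads3, 70 and 16 before that of Elovl5 and 35 before that of Elovl1, and 33.8% of 32851 promoter windows of 250 bases held 1 or more. GGGCGG, on either strand, matched in Elovl1, Elovl2, Fads2 and Fads3 (32.7% of windows), and CACGTG matched once, in Elovl5, 160 bases before the start (6.02% of windows). The sterol regulatory element in the form TCACNCCAC (1.05% of windows), and direct repeats of AGGTCA with 1 base (0.0335%) or 4 bases (0.0152%) between the copies, all read on both strands, did not match in these windows of the 6 genes.

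For each of the 10 genes, the genes with the most similar pattern over the 10 group means were found by Pearson's r of log2(CPM + 1) among 12354 genes. Elovl6 was nearest to Acaca (r = 0.931), which encodes the enzyme that makes malonyl-CoA in the cytosol, followed by Rnd2 (0.898) and Acacb (0.897). The nearest genes were Lrrk2 for Scd1 (0.980), Pkib for Scd2 (0.987), Slc23a1 for Fads1 (0.934), Ank3 for Fads2 (0.954) and Rbm41 for Fads3 (0.921). They were Kcnj8 for Elovl1 (0.975), Zfp169 for Elovl2 (0.938), St3gal3 for Elovl3 (0.984) and Elk3 for Elovl5 (0.980). Among the 10 genes themselves, the closest pair was Elovl1 and Elovl5 (0.973), and Scd1 had r = 0.945 with Elovl1, 0.925 with Elovl5 and 0.859 with Scd2. These values describe 10 points each, shared between all genes, and carry no test.

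In the authors' deposited table of DESeq2 comparisons, 36 of the 110 pairs of gene and comparison had an adjusted p under 0.05, against 29 here with edgeR, and 27 pairs were called in both. Called only in the authors' deposited table were Elovl3 in HF over LF female controls (adjusted p = 0.000110) and in HF labelled-knockout females (0.0299), Scd1 and Elovl6 in HF over LF labelled-knockout females, Fads3 and Elovl5 in HFCF over HF labelled-knockout females, Elovl6 in HFCF over HF male controls, and Fads1 and Elovl2 in HFCF labelled-knockout males. Called here and not in the authors' deposited table were Fads3 and Elovl6 in HFCF over HF labelled-knockout males.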

How the data were processed

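RNA-seq of whole liver was analysed for 48 mice in 10 groups. Per the labels' protocols, RNA was extracted with Trizol and libraries had inserts of 250 to 300 bases and no strand information. Per the submitters' processing notes the tools were STAR 2.6.1, HTSeq 0.6.1 and DESeq2, with the builds GRCm38 and mm10. The order and settings of these steps are not given in the sources used here. The authors deposited 11 tables of pairwise comparisons, with raw read counts, a normalised signal, FPKM values, log2 fold changes and p-values.

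Only the counts were tested. They were joined by gene identifier over the 11 tables into 29221 genes, and 1341082 repeated values showed 0 differences. The deposited normalised signal was the count divided by 1 factor per library. The deposited FPKM values times gene length were proportional to the counts, so FPKM, signal and the authors' log2 changes and p-values added no measurement of their own and served as checks. CPM values are counts scaled by the product of the total of reads on genes (15338239 to 22072884 per library) and the library's TMM factor over all 48 libraries (0.883 to 1.18).

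Differences were tested with edgeR 4.0.16 (R 4.3.3): trimmed-mean (TMM) factors, filterByExpr, and the quasi-likelihood F test on the 2 groups compared. Interactions were fitted on 4 groups. The Benjamini-Hochberg adjustment covered every gene of a fit, and the threshold was 0.05. Overlap of groups is described for named genes only, and its share over all genes was not counted. There were 17 pairwise comparisons (11 deposited, 2 of HFCF with LF, 4 of males with females) and 7 interactions. The procedure was also run on simulated counts with 200 changed genes. The spread between mice was fixed at 1 value for all genes and not fitted to these data. The outcome is not given here, and no result rests on it. Alternatives were DESeq2 1.42.0 size factors, its Wald test, the fit without a low-count filter, all groups in 1 fit, a replicate block, and each library left out in turn (296 fits).

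Groups and replicate numbers came from the sample titles. All 10 genes were taken into every comparison family. Those without values of their own in a comparison are covered by its counts. Other pathway genes were named by a rule of up to 4 called genes with the largest change per comparison. Where a count of a list made another gene useful, it was named after its values were seen. The genes, lists and tests were chosen with earlier results of these data known. Sequences came from GENCODE transcripts and RefSeq promoter entries.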

Additional observations from a re-analysis of the deposited data

Results flagged for a closer look

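In 10 of 100 sets of 1 gene in 1 group, the highest or lowest mouse lay far from the rest of its group by Dixon's criterion. For independent sets of normally distributed values chance gives about 1 in 20. These sets share libraries, and the shape of their values was not tested, so the count cannot be set against that rate. Each is given as CPM, with the range of the other mice of the group.

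For the stearoyl-CoA desaturases, LF female control replicate 2 had 29616.5 for Scd1 (others 7321 to 9884) and HFCF male labelled-knockout replicate 6 had 60786 (others 34540 to 43781). LF female control replicate 1 had 77.3 for Scd2 (others 9.93 to 14.96), and HF female control replicate 1 had 32.4 (others 6.57 to 10.5). Among the Fads genes, HF male labelled-knockout replicate 4 had 99.9 for Fads3 (others 39.5 to 54.9).

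Among the elongases, HF female labelled-knockout replicate 2 had 39.98 for Elovl1 (others 31.5 to 32.4), and HF female control replicate 2 was low for Elovl2, at 790 (others 901 to 922). HFCF male control replicate 1 had 111 for Elovl3 (others 24.0 to 48.7). HFCF female control replicate 1 had 344 for Elovl6 (others 171 to 194), and HFCF male labelled-knockout replicate 6 had 668 (others 123 to 281).

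The effect of the labelled knockout differed between the HFCF and HF diets in males, by the interaction test, for Scd2 (log2 difference of effects 1.02), Fads2 (0.65) and Fads3 (1.07).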

How the results depend on the processing

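Of 46 calls of these genes, 46 held with DESeq2 size factors, 45 with the Wald test of DESeq2, 45 without the filter on low counts and 41 with all groups of the sexes compared in 1 fit, and none changed direction under these or without any 1 library. The 41 include the 3 calls of the male knockout by diet test, which already used all male groups. For these 3 the fit was the same and could not change a call. Counts of called genes moved by more than 1.5 times under the Wald test in HFCF males (3 for the labelled knockout), HF over LF female controls (1) and labelled knockouts (2), males over females in HFCF labelled knockouts (2), the male knockout by diet test (6), the HF knockout by sex test (1) and the diet by sex test in controls (2). Without the filter HF over LF gave 1 and 2 genes in female controls and labelled knockouts. With all groups in 1 fit the HFCF male knockout gave 2 and HFCF controls by sex 1. In each case the cause was not tested. The shares of all genes called under these alternatives are not given here, so the counts have no background beside them. Smaller moves under the Wald test were from 4 to 6 and 8 to 7 for HFCF over HF in labelled-knockout females and males, 6 to 7 in male controls, 5 to 7 for HFCF over LF in controls and 2 to 3 for sex in HFCF controls. Without the filter they were from 8 to 7 for HFCF over HF in labelled-knockout males and 4 to 5 for sex in HF controls. With all groups in 1 fit they were from 6 to 5 for the knockout in HF males and for HFCF over HF in male controls, and 5 to 4 for HFCF over LF in controls.

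Leaving out 1 library gave 6 to 7 genes for the knockout in HF males and 0 to 2 in HFCF males, 0 to 1 for HF over LF in labelled-knockout females, and 4 to 7, 5 to 8, 2 to 5 and 2 to 5 for HFCF over HF in male controls, labelled-knockout males, female controls and labelled-knockout females. It gave 3 to 7 and 1 to 2 for HFCF over LF in controls and labelled knockouts, 1 to 7 and 1 to 2 for sex in HF controls and labelled knockouts, 2 to 4 and 1 to 1 for sex in HFCF, 2 to 4 for the male knockout by diet test, 0 to 1 for the HF knockout by sex test and 0 to 7 for the diet by sex test in controls. The tests of the knockout in the 3 female settings, of HF over LF in female controls and of the other 4 interactions gave 0 throughout.

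Same-numbered mice did not deviate together in a way that pairs them: no comparison had every correlation of their deviations above 0.1, and in none did every mouse correlate best with its own number. The fit with the replicate number as a block kept only mice whose number occurred in every group compared. That left 3 mice a group for HFCF over HF in female controls and 4 a group for males against females. The block and the smaller groups cannot be told apart there. In this fit 36 of the 46 calls held, and the genes called became 0 for HFCF over HF in female controls, 2 for sex in HF labelled knockouts and 1 for sex in HFCF controls. Smaller moves were from 8 to 6, 6 to 7 and 4 to 3 for HFCF over HF in labelled-knockout males, male controls and labelled-knockout females, 5 to 4 for HFCF over LF in controls and 4 to 5 for sex in HF controls. Elovl3 rested on 0 to 17 reads per library in LF females.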
